A study of Mus musculus with 23 samples.

Results

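The genes described here are 31 genes of the unfolded protein response and of protein folding in the endoplasmic reticulum (ER), read in scrapings of the small intestine. They were chosen by name, as all array spots that carry 1 of the 31 gene names. They are 31 of the 21477 genes measured, and 44 probes (53 spots) carried their names. The quercetin-fed mice, called HF-Q, were 11 adult male C57BL/6J mice that ate a high-fat diet with 0.33% (w/w) of the flavonol quercetin for 12 weeks. Their controls, called HF, were 12 adult male C57BL/6J mice that ate the high-fat diet alone for the same 12 weeks. All mice had first eaten a normal-fat diet for 3 weeks and were fasted for 2 to 4 hours before the tissue was taken, so no mouse without the high-fat diet was among them. Per mouse there was 1 array, read in 2 colours: Cy5 for the RNA of that mouse and Cy3 for a pool made from every mouse. Each value is the log2 ratio of the mouse to this pool. A difference between diets is a difference of these log2 ratios, HF-Q minus HF.

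Secreted and membrane proteins enter the ER through the Sec61 translocon, lose their signal peptide there and fold with the help of Hsp70 and Hsp90 family chaperones, lectin chaperones and disulfide isomerases. Proteins that do not fold are carried back to the cytosol and degraded, a route called ER-associated degradation. When unfolded proteins build up, the sensors IRE1, ATF6 and PERK start the unfolded protein response: IRE1 splices the mRNA of the transcription factor XBP1, ATF6 is cut to release a transcription factor, and PERK slows translation and raises ATF4. In the intestine the response is best known in cells that secrete much protein, such as Paneth cells, goblet cells and plasma cells.

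ATF6 and XBP1 are known to act at short promoter motifs, and these are shown because they are the sequence that several of the genes have in common apart from their names. RefSeq promoters (build GRCm38.p6, 250 bases before to 50 bases after the start site) were given for 23 of the 31 genes and for 27025 genes in all. The ER stress response element ERSE, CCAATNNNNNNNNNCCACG, was searched on both strands and found in 9 of the 23 promoters (39.1%), against 37 of the 27025 (0.137%). The ERSE-II element, ATTGGNCCACG, was found in Dnajb11 and Herpud1, which makes 2 of 23 (8.7%), against 12 of all promoters (0.0444%). The UPRE element, TGACGTGG, was in 0 of the 23 promoters, against 193 of all (0.714%). The CCACG core, which is part of ERSE and ERSE-II, was in 20 of the 23 (87%), against 35.5% of all. The 9 genes with ERSE were Hspa5, Hsp90b1, Creld2, Dnajc3, Pdia6, Calr, Canx, Syvn1 and Derl3, and Hsp90b1 held 2 matches, on opposite strands. A match describes these letters and does not show binding. The genes were chosen by name as genes of this response, so the higher share of its known motifs among them is no independent finding. In the lines that follow, which give 7 of the 11 genes with a match from 5′ to 3′ in the direction of transcription, capitals mark the fixed letters of the motif.
Hspa5 (chr2:34772005-34772063, plus strand): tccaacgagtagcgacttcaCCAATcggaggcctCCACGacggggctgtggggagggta
Creld2 (chr15:88819500-88819558, plus strand): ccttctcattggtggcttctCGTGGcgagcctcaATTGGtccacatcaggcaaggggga
Pdia6 (chr12:17266471-17266529, plus strand): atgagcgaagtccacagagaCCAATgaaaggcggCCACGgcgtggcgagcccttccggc
Canx (chr11:50325780-50325838, minus strand): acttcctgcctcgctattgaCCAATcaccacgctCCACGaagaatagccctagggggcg
Derl3 (chr10:75893222-75893280, plus strand): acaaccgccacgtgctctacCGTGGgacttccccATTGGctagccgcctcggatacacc
Dnajb11 (chr16:22857843-22857871, plus strand): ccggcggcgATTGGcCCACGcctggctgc
Herpud1 (chr8:94386357-94386407, plus strand): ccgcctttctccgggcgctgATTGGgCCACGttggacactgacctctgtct

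All 31 genes were well above background on all 23 arrays, and none was saturated in either channel on any array. Of their 44 probes, 40 passed the filter on dim probes. The 4 that did not were 3 of the 4 Ern1 probes and 1 of 2 Dnajb11 probes. All 12 enterocyte markers were well above background on all 23 arrays. A protocol label names liver as the source of the RNA, and of the 10 hepatocyte markers 6 were measured. Serpina1a, Tat, Fga, Cyp2e1 and Apoh were well above background on all 23 arrays and Alb, the main plasma protein made by hepatocytes, on 11, while Ahsg, Fgb, Hpx and Mup3 did not pass the filter on dim probes. The standard deviation of a gene over the 23 mice ran between 0.118 and 0.449 on the log2 scale. The number of arrays limits the precision, and the labels describe each array as a separate mouse. In bulk tissue, fewer cells of a type and less RNA per cell cannot be told apart.

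The first comparison asked how the ER genes stood in quercetin-fed mice. Of the 31 genes, 24 averaged higher and 7 lower in HF-Q than in HF mice, with a median difference of 0.080 on the log2 scale. Over all 21477 genes, 48.1% averaged higher and the median was -0.0038. None of the 31 passed the test, and 0 of the 21477 genes did (0% called), by limma with Benjamini-Hochberg adjustment over all genes. Adjusted p ran between 0.951 and 0.996 for the 31 genes. An unadjusted p under 0.05 was reached by 5 genes with a higher mean in HF-Q mice (Sdf2l1, Creld2, Manf, Edem1 and Ssr2), against 2.1% of all genes, and by 1 with a lower mean (Dnajb9), against 2.42%. These 6 became 3 without HF 2, without HF 12 or without HF-Q 9, and 10 without HF 11. Many of the 31 genes moved together over the mice (128 of 465 pairs correlated above 0.5), so these counts are not of independent genes. All 31 of the 95% confidence intervals lay within 1.5-fold in either direction, the widest bounds being 0.751-fold and 1.34-fold. The same held for 20862 of all 21477 genes, so this is no particular trait of the 31. In 0 of the 31 genes were the 2 diets free of overlap, and in 16 of 31 the difference had the same sign on all 3 slides. These 2 counts were not made over all genes.

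**Figure D1:**
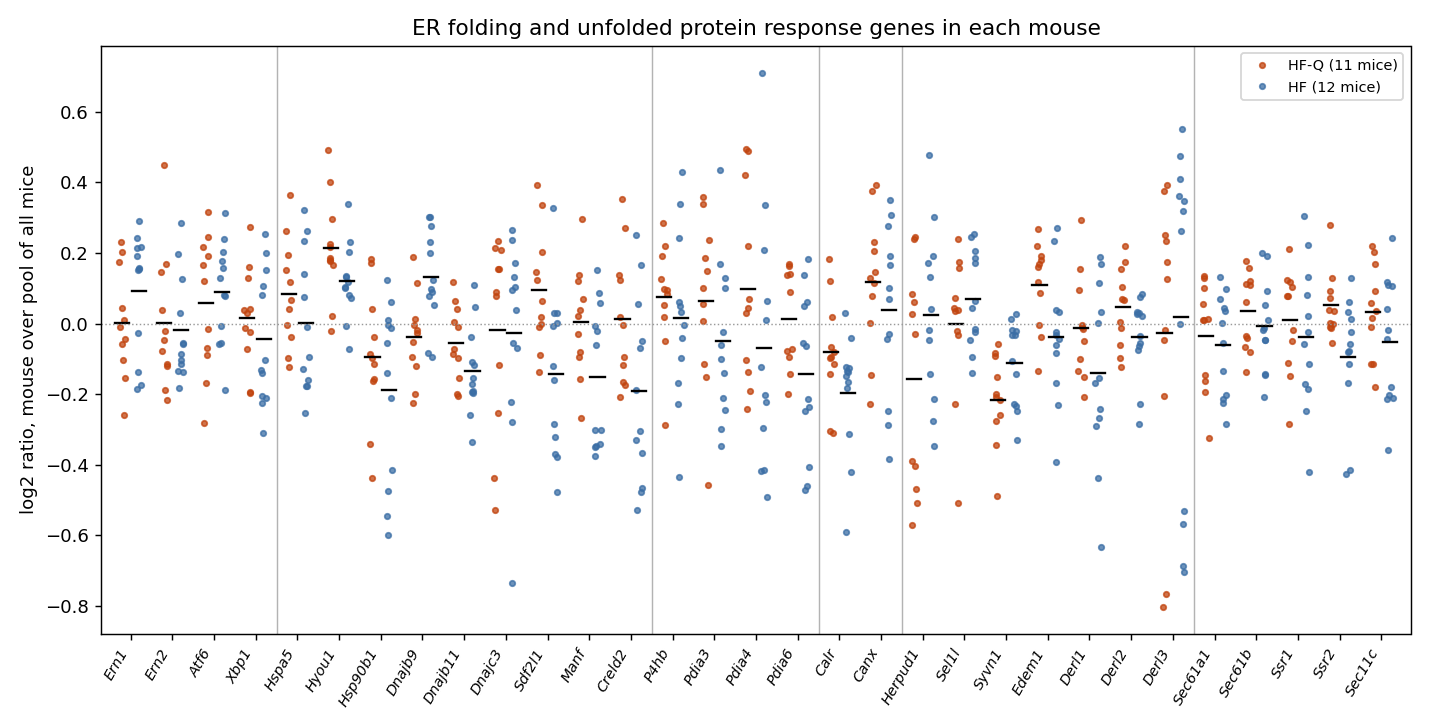
Log2 ratio of each mouse to the pool (vertical axis) for the 31 genes, ordered by role, with HF-Q mice (11 points) left of HF mice (12 points) and the mean of each diet as a bar. The diets overlap for all 31 genes. Derl3 shows the widest spread, with 2 HF-Q mice (HF-Q 2 and HF-Q 3) and 4 HF mice (HF 1 to HF 4) below -0.5.

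**Figure D2:**
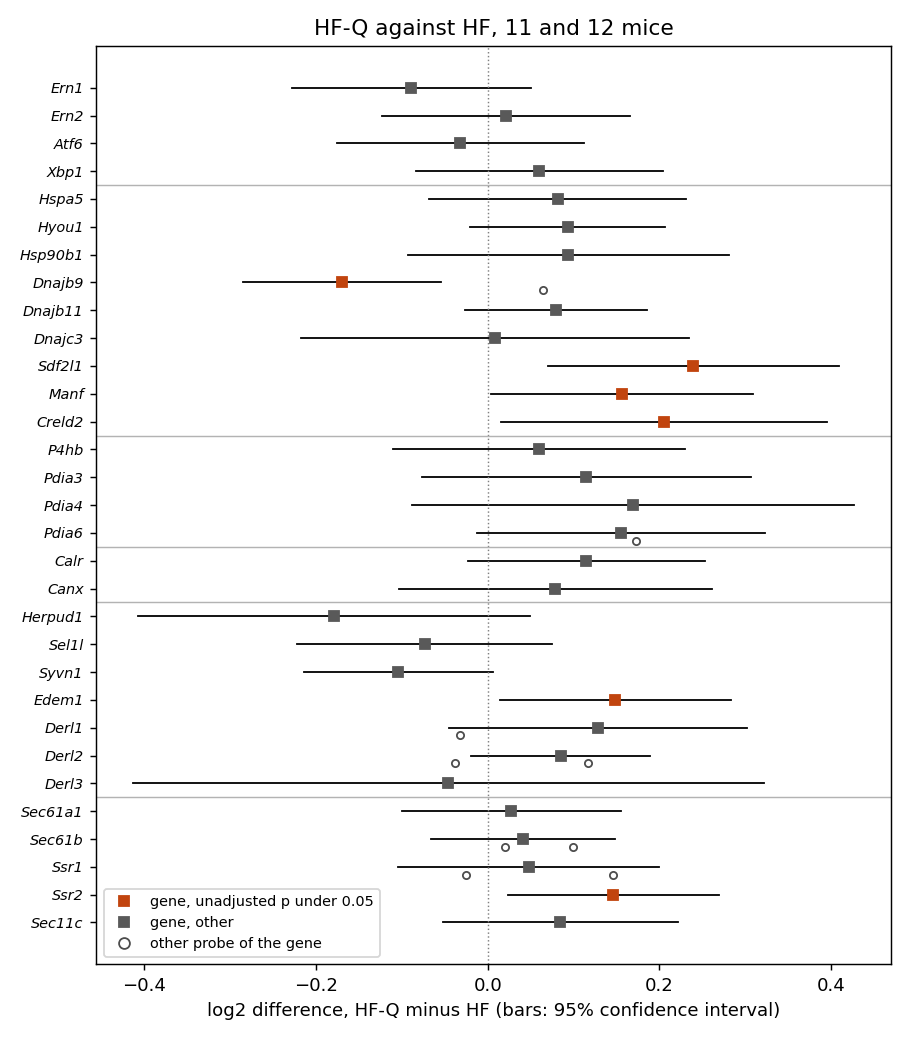
Difference between diets for each gene (horizontal axis, log2, HF-Q minus HF, squares) with its 95% confidence interval, and the differences given by other probes of the same gene as open circles. Of the 6 genes marked in orange, with unadjusted p under 0.05, 5 lie right of 0 and Dnajb9 lies left of it, while the second Dnajb9 probe lies right of 0.

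The sensors and transcription factors stood close to 0, with 2 of 4 higher and a median difference of -0.0052. Ern1, which encodes the sensor IRE1 alpha, ran -0.26 to 0.23 in HF-Q mice (median -0.0091), against -0.18 to 0.29 in HF mice (median 0.16). Its difference was -0.089 ± 0.068 (SE), p = 0.203 before adjustment by limma, and 8 of 11 HF-Q mice were under the median of the HF group. Ern2, the related sensor of gut epithelium, differed by 0.021 ± 0.070 (SE), with a 95% confidence interval of -0.12 to 0.17. Atf6 differed by -0.032 ± 0.070 (SE), and its sign was not the same on the 3 slides (0.14, -0.32 and 0.033). Xbp1, the transcription factor downstream of IRE1, ran -0.20 to 0.27 in HF-Q mice (median 0.031), against -0.31 to 0.25 in HF mice (median -0.12), with a difference of 0.060 ± 0.070 (SE). The spliced form of Xbp1 mRNA was not analysed here.

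Among the Hsp70 and Hsp90 family chaperones and their partners, 8 of 9 averaged higher in HF-Q mice, with a median difference of 0.093. Hspa5, the Hsp70 of the ER also called BiP, ran -0.12 to 0.36 in HF-Q mice (median 0.067), against -0.25 to 0.32 in HF mice (median -0.051). Its difference of 0.082 ± 0.073 (SE) had a 95% confidence interval of -0.068 to 0.23, and the slides gave 0.093, 0.063 and 0.098. Of the HF-Q mice, 9 of 11 exceeded the median of the HF group, while the ranges of the 2 diets overlapped. Sdf2l1, an ER protein that works with Hspa5 and its J-domain partners, had the highest difference of the 31. It ran -0.14 to 0.39 in HF-Q mice (median 0.063), against -0.48 to 0.33 in HF mice (median -0.14). The difference was 0.24 ± 0.082 (SE), with p = 0.00747 before and 0.951 after adjustment by limma. Each of the 11 HF-Q mice exceeded the median of the HF group, and the slides gave 0.33, 0.21 and 0.20.

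Creld2, an ER stress gene with disulfide isomerase activity, ran -0.21 to 0.35 in HF-Q mice (median -0.0035), against -0.53 to 0.25 in HF mice (median -0.25). It differed by 0.21 ± 0.092 (SE), p = 0.0348 before adjustment by limma, again with 11 of 11 HF-Q mice over the median of the HF group. Manf, an ER protein that is secreted under ER stress, ran -0.27 to 0.30 in HF-Q mice (median 0.023), against -0.38 to 0.15 in HF mice (median -0.18). It differed by 0.16 ± 0.074 (SE), p = 0.0451 before adjustment by limma, with 10 of 11 HF-Q mice over the median of the HF group. Hyou1, a large Hsp70 relative that exchanges nucleotide on Hspa5, differed by 0.093 ± 0.055 (SE). Hsp90b1, the Hsp90 of the ER, differed by 0.094 ± 0.090 (SE), nearly all of it from the third slide (-0.0053, 0.0018 and 0.28). The J-domain proteins that recruit Hspa5 did not share a direction. Dnajb11 differed by 0.080 ± 0.051 (SE), and Dnajc3, which varied by 1.00 log2 units over the mice, by 0.0086 ± 0.11 (SE).

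Dnajb9, a J-domain protein that in mammalian cells represses IRE1 through Hspa5, was the chaperone partner with the lower mean. Its brightest probe ran -0.22 to 0.19 in HF-Q mice (median -0.026), against -0.096 to 0.30 in HF mice (median 0.11). The difference was -0.17 ± 0.056 (SE), p = 0.00549 before and 0.951 after adjustment by limma, with 9 of 11 HF-Q mice under the median of the HF group. The second probe disagreed. The brightest one lies at chr12:45307313-45307372 and the second at chr12:45308272-45308331 (build mm9), and the second gave 0.064 ± 0.11 (SE). Over the mice the 2 probes correlated at only 0.314, so the lower Dnajb9 mean holds for 1 of its 2 probes.

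All 4 disulfide isomerases, which make and shuffle disulfide bonds in new proteins, averaged higher in HF-Q mice, with a median of 0.14. Pdia6 ran -0.20 to 0.17 in HF-Q mice (median 0.0084), against -0.47 to 0.18 in HF mice (median -0.14), over 10 HF-Q mice because 1 spot was set to missing. Its difference was 0.16 ± 0.081 (SE), p = 0.0674, and its second probe gave 0.17, p = 0.0436, both before adjustment by limma. Pdia4 had the widest range of the 4 and differed by 0.17 ± 0.12 (SE), with 0.36, -0.12 and 0.26 on the 3 slides. Pdia3 differed by 0.11 ± 0.093 (SE), and the second slide alone was clearly above 0 (-0.0021, 0.40 and -0.0085). P4hb, the founding disulfide isomerase, differed by 0.060 ± 0.082 (SE). The lectin chaperones Calr and Canx, which hold glycoproteins in a folding cycle, differed by 0.11 ± 0.067 (SE) and 0.079 ± 0.088 (SE), and each had slides on both sides of 0.

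The genes of ER-associated degradation split, with 3 of 7 higher and a median of -0.046. Edem1, a lectin that hands misfolded glycoproteins to degradation, ran -0.14 to 0.27 in HF-Q mice (median 0.16), against -0.39 to 0.27 in HF mice (median -0.039). It differed by 0.15 ± 0.065 (SE), p = 0.0314 before adjustment by limma, with slides at 0.24, 0.0080 and 0.19. Syvn1, the ubiquitin ligase HRD1, ran -0.49 to -0.059 in HF-Q mice (median -0.21), against -0.33 to 0.028 in HF mice (median -0.070). It differed by -0.10 ± 0.053 (SE), p = 0.0637, with 10 of 11 HF-Q mice under the median of the HF group. Its partner Sel1l differed by -0.073 ± 0.072 (SE), and Herpud1, a membrane protein of the same complex, by -0.18 ± 0.11 (SE) with -0.17, -0.17 and -0.22 on the 3 slides. Edem1 thus averaged higher and Syvn1 lower in HF-Q mice, and neither passed the test over all genes.

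The derlins, membrane proteins of the exit channel, did not share a direction. Derl3 had the widest range over mice of the 31 genes, 1.35 log2 units. It ran -0.80 to 0.39 in HF-Q mice (median 0.13), against -0.70 to 0.55 in HF mice (median 0.29). Its difference of -0.046 ± 0.18 (SE) was small against that spread. Derl1 differed by 0.13 ± 0.084 (SE) with its brightest probe (chr15:57703097-57703156) and by -0.032 with the other (chr15:57701488-57701547), and these 2 probes correlated at 0.235 over the mice. Derl2 differed by 0.085 ± 0.050 (SE), and its other probes gave 0.12 and -0.037, the last with a correlation of -0.172 to the brightest probe.

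All 5 genes of translocation and signal peptide removal averaged higher in HF-Q mice, with a median of 0.048. Ssr2, a subunit of the translocon-associated protein complex, ran -0.055 to 0.28 in HF-Q mice (median 0.037), against -0.43 to 0.13 in HF mice (median -0.068). It differed by 0.15 ± 0.059 (SE), p = 0.0209 before adjustment by limma, with each of the 11 HF-Q mice over the median of the HF group and 0.24, 0.14 and 0.069 on the 3 slides. Ssr1, another subunit, differed by 0.048 ± 0.074 (SE) with its brightest probe, and by 0.15 and -0.025 with the other 2. The channel subunits Sec61a1 and Sec61b differed by 0.028 ± 0.062 (SE) and 0.041 ± 0.052 (SE), and Sec11c, a catalytic subunit of signal peptidase, by 0.085 ± 0.066 (SE). The other Sec61b probes gave 0.021 and 0.099, with p = 0.736 and 0.0325 before adjustment by limma, so all 3 probes of this gene stood above 0.

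Further lists hold other genes of the same pathways. In the PERK and ATF4 list, 6 of 18 genes averaged higher and 12 lower, with a median of -0.048 and none called. Atf5, a transcription factor translated when PERK is active, ran -0.51 to -0.098 in HF-Q mice (median -0.26), against -0.29 to 0.25 in HF mice (median -0.0080). It differed by -0.25 ± 0.056 (SE), p = 0.000170 before and 0.951 after adjustment by limma, with 11 of 11 HF-Q mice under the median of the HF group. Eif2ak3, the PERK gene itself, differed by -0.17 ± 0.058 (SE), p = 0.00722 before adjustment by limma. Atf4, named after its values were seen, differed by -0.16 ± 0.062 (SE). In these mice the PERK and ATF4 list therefore had its median below 0 and the 31 genes had theirs above 0, and the difference between the lists was not tested.

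Of 29 other translocon, signal peptidase and glycosyltransferase genes, 22 averaged higher, with a median of 0.044, among them Tusc3 at 0.17 ± 0.073 (SE) and Ostc at 0.15 ± 0.074 (SE). Of 34 other chaperones, oxidoreductases and glycan folding genes, 23 averaged higher, with a median of 0.023, and Cnpy2, at 0.099 ± 0.041 (SE), had the smallest p. Of 20 other degradation genes, 8 averaged higher, with Edem2 at 0.15 ± 0.058 (SE) and Erlin1 at -0.14 ± 0.060 (SE). Of 25 genes of transport to the Golgi, 15 averaged higher, and of 15 other sensors and ER transcription factors, 9 did, with medians of 0.0035 and 0.014. None of these genes passed the test.

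Markers of other cell types also had different means in the 2 diets. The score of a marker list is the mean log2 ratio of its measured genes in a mouse. The smooth muscle score ran -1.49 to 0.88 in HF-Q mice, against -0.78 to 1.18 in HF mice, with all 9 markers lower on average in HF-Q mice. The pancreatic acinar score ran -2.58 to 1.78 in HF-Q mice, against -2.49 to 1.42 in HF mice, with 25 of 26 measured markers lower on average. The T cell score ran -0.13 to 0.43 in HF-Q mice, against -0.35 to 0.19 in HF mice, with 5 of 7 measured markers higher on average, 4 of them at an unadjusted p under 0.05. None of the markers of these 3 lists was called. With the acinar score as a covariate the median difference of the 31 genes was 0.088, and with the smooth muscle score 0.081, against 0.080 without. With the T cell score as a covariate, a fit added after the data were seen, the median was 0.048, and of the 6 genes only Sdf2l1 (0.22, p = 0.0312) and Dnajb9 (-0.14, p = 0.0341) stayed at an unadjusted p under 0.05 by limma. The median was thus closer to 0 at a given T cell score, and 24 of 31 genes were above 0 in this fit too, with Atf6, Dnajc3, P4hb and Derl3 changing sign.

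The second question was which of the 31 genes moved together from mouse to mouse. Of their 465 pairs, 128 correlated above 0.5 and 9 below -0.5, with a median of 0.198. The pairs share arrays and the reference pool, so these values describe the mice and carry no test. The highest was Canx with Pdia6 (0.916), followed by Creld2 with Hspa5 (0.895) and Creld2 with Dnajb11 (0.875). The lowest was Derl1 with Derl3 (-0.700), and Derl3 with P4hb stood at -0.653. Derl1 and Derl3, derlins of the same exit channel, thus ran opposite to each other over these mice, with Derl1 read by its brightest probe.

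**Figure D3:**
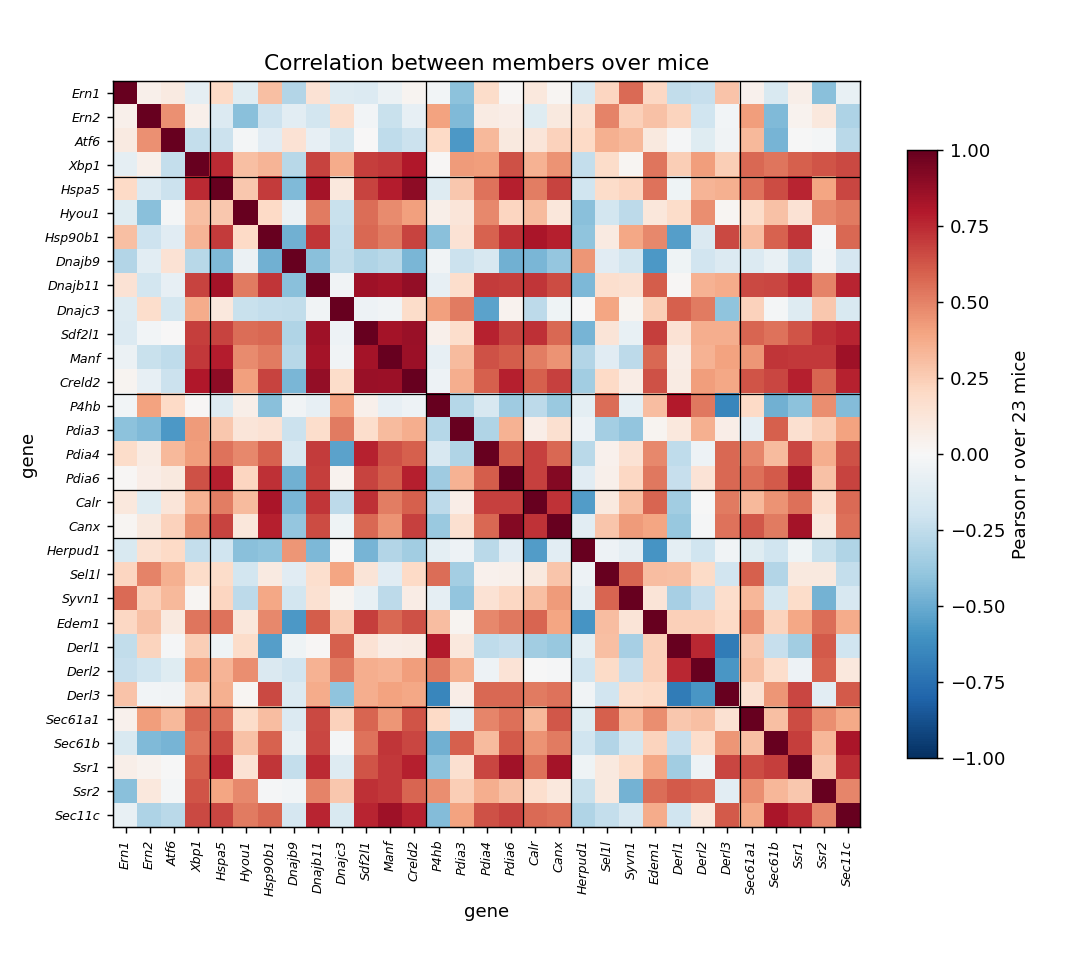
Pearson correlation over the 23 mice between each pair of the 31 genes, in the order of their roles (lines part the roles), from blue at -1 to red at 1. A red group joins Hspa5, Hsp90b1, Dnajb11, Sdf2l1, Manf, Creld2, Pdia6, Canx and Ssr1, while Derl1 and Derl3 are blue against each other (-0.700).

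The pairwise pattern was followed up with Hspa5 as the measure against which all other genes were fitted, a comparison added after the data were seen. The pairs just given prompted it and come from the same mice, so the p-values of this fit are no independent evidence that these genes move with Hspa5. Of the other 30 genes, 10 were called (33.3%), all of them higher in mice with higher Hspa5, by limma with adjustment over 21476 genes. Of all genes, 1.18% were called and 0.652% with a positive slope. Creld2 ranked first of all 21476 genes, with r = 0.895 (permutation p = 1e-05) and Spearman's rho = 0.918 (permutation p = 1e-05), where 1e-05 is the smallest p that the permutations can give. Its slope was 1.25 ± 0.143 log2 units per log2 unit of Hspa5 (SE), adjusted p = 0.000115 by limma. The correlation was 0.813 in HF-Q mice and 0.949 in HF mice, 0.921, 0.927 and 0.878 within the 3 slides, and 0.897 (adjusted p = 0.000638) without the 2 mice farthest from the median Hspa5 level.

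The other 9 were Manf, Dnajb11, Pdia6, Ssr1, Xbp1, Hsp90b1, Sdf2l1, Canx and Sec11c. Manf followed with r = 0.788 (permutation p = 4e-05) and Spearman's rho = 0.810 (permutation p = 3e-05), and Dnajb11 with r = 0.835 (permutation p = 1e-05) and Spearman's rho = 0.836 (permutation p = 1e-05), their adjusted p being 0.0111 and 0.0117 by limma. Xbp1, the transcription factor of the group, gave r = 0.749 (permutation p = 8e-05) and Spearman's rho = 0.745 (permutation p = 9e-05), adjusted p = 0.0206 by limma. Of the 5 genes of translocation and signal peptide removal, Ssr1 and Sec11c were called and Sec61a1, Sec61b and Ssr2 were not. Without the 2 mice farthest from the median Hspa5 level (HF-Q 6 and HF 3), only Creld2 and Ssr1 stayed under 0.05, while r over the 10 genes ran between 0.665 and 0.897. Within slides r ran between 0.459 and 0.937 for the 10 genes, and no slide alone called any of them. With diet as a covariate 6 of the 30 genes were called, and 87 of 21476 in all. Leaving out each mouse in turn, Creld2, Manf and Dnajb11 stayed called in all 23 fits, Pdia6 and Ssr1 in 22, and Sec11c in 5. The count of 10 became 4 without HF 3 or HF 4, and 6 without HF 1, HF 10 or HF-Q 5.

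The correlations of these 10 genes with Hspa5 ran between 0.0897 and 0.813 in HF-Q mice, against 0.769 to 0.949 in HF mice, and were lower in HF-Q mice for all 10. A fit with an interaction of diet and Hspa5, added after the data were seen, called 0 of 30 genes and 0 of 21476 in all (0% called). At an unadjusted p under 0.05 it gave 4 of the 30 genes, against 15.8% of all genes, so a difference between the diets in this relation was not shown. The smallest p among the 30 was that of Sec11c, 0.0164 before and 0.234 after adjustment by limma.

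Dnajb9, read by its brightest probe, was the gene that ran most clearly against Hspa5. It gave r = -0.444 (permutation p = 0.0342) and Spearman's rho = -0.411 (permutation p = 0.0528). Its adjusted p was 0.267 by limma, so it was not called. The second Dnajb9 probe, which correlated at only 0.314 with the brightest, was not set against Hspa5 on its own. Atf6, Herpud1, Ern2, P4hb and Derl1 were also below 0 (-0.219 to -0.0411) and not called. Of the 10 genes other than Hspa5 with an ERSE or ERSE-II match, 5 were called (Creld2, Dnajb11, Pdia6, Hsp90b1 and Canx) and Calr, Derl3, Dnajc3, Herpud1 and Syvn1 were not. Of 12 genes with a promoter but neither motif, 3 were called (Sdf2l1, Ssr1 and Xbp1). The median r with Hspa5 was 0.593 in the genes with a match (-0.201 to 0.895) and 0.441 in those without (-0.444 to 0.76). Of 8 genes with no promoter given, 2 were called (Manf and Sec11c), with a median r of 0.332. A difference between these groups was not tested.

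Among the listed pathway genes the fit on Hspa5 called Rpn2 (r = 0.764, adjusted p = 0.0224) and Rpn1 (r = 0.689, adjusted p = 0.0425), subunits of the oligosaccharyltransferase that adds glycans to new proteins, by limma over all genes. It also called Agr2 (r = 0.684, adjusted p = 0.0326), an isomerase of mucus-secreting cells, and Txndc11 (r = 0.732, adjusted p = 0.0422). Counts by list were 4 of 34 other chaperones, 3 of 29 other translocon and glycosyltransferase genes, and 0 of 18 in the PERK and ATF4 list. Outside the lists, Gcnt1 (r = 0.858), a mucin-type glycosyltransferase, came next after Creld2 among all genes, followed by Irf8 (r = 0.849), a transcription factor of immune cells, and Hsph1 (r = 0.808), a cytosolic Hsp110 chaperone. These last 3 were named after their values were seen. Of the first 10 genes by p in this fit, in either direction, 1 was among the ER genes described here. Of the first 20 it was 3 and of the first 50 it was 6, with 0 from the pathway lists. Most of the genes ranked closest to Hspa5 therefore lay outside both sets.

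**Figure D4:**
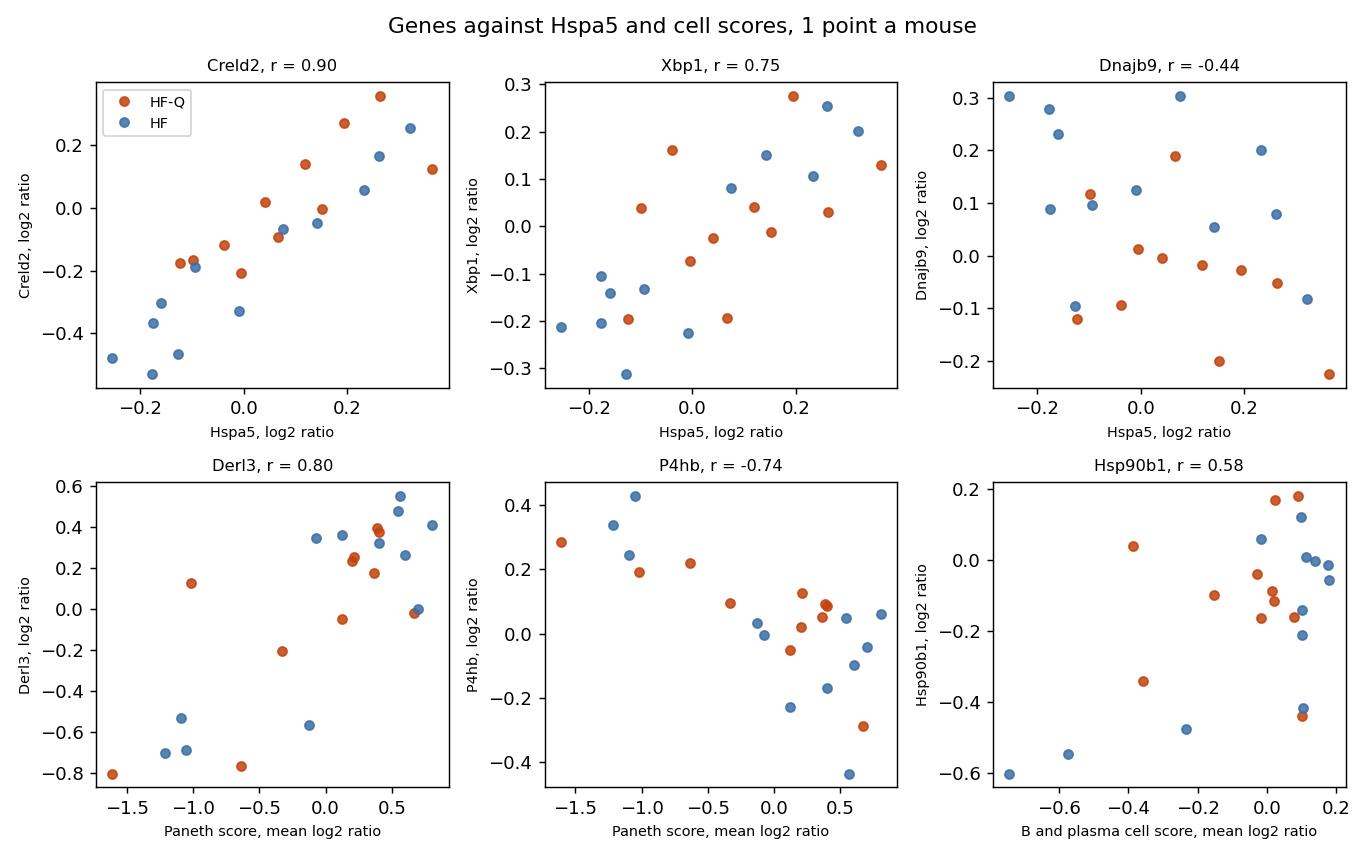
Each panel sets the log2 ratio of a gene (vertical axis) against the Hspa5 log2 ratio or a cell score (horizontal axis, mean log2 ratio of the markers), with 1 point per mouse and HF-Q and HF in different colours. Creld2 rises with Hspa5 over both diets (r = 0.895), and Dnajb9, read by its brightest probe, leans the other way (r = -0.444). The relation of Hsp90b1 to the B and plasma cell score leans on the mice at the far left.

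The third question was how the ER genes stood to the secretory cells in each scraping. Paneth cells, which secrete antimicrobial peptides at the crypt base, were scored from 9 measured markers, of which Defa21 and Defa5 had the widest range over mice. The score ran -1.61 to 0.67 in HF-Q mice, against -1.21 to 0.81 in HF mice. Its lowest values lay at low replicate numbers in both diets. They were those of HF 1, HF 3 and HF 4 (-1.21, -1.05 and -1.09) and of HF-Q 1, HF-Q 2 and HF-Q 3 (-1.02, -1.61 and -0.63). HF 2 stood at -0.13. Derl3 was below -0.5 in HF 1 to HF 4, HF-Q 2 and HF-Q 3. What the replicate numbers stand for was not tested. Of the 31 genes, 8 were called (25.8%), against 30.7% of all genes (18.4% higher and 12.3% lower with the score), so the share of ER genes related to this score was near that of the background. The score went along with others: it correlated at -0.781 with the enterocyte score, 0.820 with the smooth muscle score and 0.764 with the B and plasma cell score. Which of these cell types the relation belongs to cannot be told apart in these scrapings.

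With the Paneth score 6 genes were higher and 2 lower. Derl3 was the clearest, with r = 0.796 (permutation p = 4e-05) and Spearman's rho = 0.708 (permutation p = 0.000190), adjusted p = 2.53e-05 by limma. Its correlation was 0.727 in HF-Q mice and 0.849 in HF mice, 0.962, 0.664 and 0.869 within the 3 slides and 0.706 (adjusted p = 0.00199) without the 2 farthest mice. P4hb ran the other way, with r = -0.739 (permutation p = 5e-05) and Spearman's rho = -0.687 (permutation p = 0.000330), adjusted p = 0.000416 by limma. It held at -0.751 in HF-Q mice and -0.751 in HF mice, -0.727, -0.806 and -0.902 within the 3 slides and -0.682 (adjusted p = 0.00532) without the 2 farthest mice. Derl1 (r = -0.645) was the other lower gene. Pdia6 (0.621), Ssr1 (0.610), Canx (0.566), Sec11c (0.564) and Pdia4 (0.505) were higher. With the enterocyte score as a covariate 0 of the 31 genes were called (1340 of 21468 in all). With the smooth muscle score 5 of the 31 were called (2616 in all), and Canx, Derl1, Pdia4 and Ssr1 were no longer among them. Leaving out 1 mouse ended the call of Canx (HF 1 or HF 4), Sec11c (HF 3) and Pdia4 (HF 1, HF 3, HF 4 or HF 11).

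Correlations with the Paneth score were 0.287 in HF-Q mice and 0.920 in HF mice for Pdia6. For Canx they were 0.145 in HF-Q mice and 0.906 in HF mice, and for Hsp90b1, which was not called, -0.106 in HF-Q mice and 0.876 in HF mice. The interaction of diet and Paneth score, added after the data were seen, called 0 of 31 genes and 0 of 21468 in all (0% called). At an unadjusted p under 0.05 it gave 9 of the 31 genes, against 5.39% of all genes. Many of the 31 genes moved together over the mice, so these 9 are not independent genes. A difference between the diets in the relation to the Paneth score was not shown. For the B and plasma cell score, which went along with the Paneth score, the same interaction called 0 of 31 genes and 0 of 21465 in all (0% called), and gave 1 of the 31 (Ern2) at an unadjusted p under 0.05, against 4.69% of all genes. In the Paneth fit Hspa5 had the smallest p, 0.000902 before and 0.688 after adjustment by limma, with a slope lower by 0.31 ± 0.081 (SE) in HF-Q than in HF mice. Of the listed pathway genes, Bhlha15, a transcription factor of secretory cells also known as Mist1, followed the Paneth score most closely (r = 0.929, adjusted p = 2.57e-09 by limma). Psat1 and Phgdh, serine synthesis genes that ATF4 is known to raise, gave r = 0.868, adjusted p = 1.04e-06 and r = 0.849, adjusted p = 3.55e-06 by limma. Both also ran against the enterocyte score (r = -0.838 and -0.941). Of 17 PERK and ATF4 genes tested with the Paneth score, 4 were called higher and 2 lower, against 18.4% and 12.3% of all genes. Nupr1, of the same list, is also a Paneth marker, so the score rests in part on it and it was not tested here. Of 15 other sensors and ER transcription factors, 2 were called higher and 3 lower.

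The B and plasma cell score, from 12 measured markers led by Ms4a1 and Cd79b, ran -0.39 to 0.10 in HF-Q mice, against -0.74 to 0.18 in HF mice. Of the 31 genes, 9 were called (29%), against 19.8% of all genes (11.8% higher and 7.98% lower with the score). Derl3 gave r = 0.784 (permutation p = 6e-05) and Spearman's rho = 0.598 (permutation p = 0.00297), adjusted p = 0.000512 by limma. P4hb gave r = -0.754 (permutation p = 3e-05) and Spearman's rho = -0.818 (permutation p = 3e-05), adjusted p = 0.00122 by limma. Without the 2 mice farthest from the median score (HF 3 and HF 1), Derl3 stood at 0.748 (adjusted p = 0.0151) and P4hb at -0.637 (adjusted p = 0.0428). The other 7 were no longer called without those mice, where 1052 of 21465 genes were called in all. For Pdia6, Hsp90b1, Calr, Canx and Sec11c, r ran between 0.543 and 0.605 over all mice and between 0.0390 (Calr) and 0.296 (Canx) without them, so these relations rested on 2 mice. Ssr1 stood at 0.556 over all mice and 0.507 without them, and Derl1 at -0.570 and -0.483, with adjusted p of 0.123 and 0.138 by limma without those mice. Without HF 1 alone the count of 9 was 2, and without HF 3 alone it was 4. With the enterocyte score as a covariate 0 of the 31 genes were called, and 33 of all genes.

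The enterocyte score, whose fit was added after the data were seen, ran -0.22 to 0.41 in HF-Q mice, against -0.11 to 0.57 in HF mice. It called 14 of the 31 genes (45.2%), against 28% of all genes (12.2% higher and 15.8% lower with the score), 4 of them higher and 10 lower in scrapings with a higher score. The 4 higher genes were P4hb, Dnajc3, Derl1 and Sel1l. Sec11c was the clearest of the lower ones, with r = -0.782 (permutation p = 2e-05) and Spearman's rho = -0.734 (permutation p = 0.000100), adjusted p = 0.000255 by limma, and P4hb the clearest of the higher, with r = 0.761 (permutation p = 3e-05) and Spearman's rho = 0.669 (permutation p = 0.000810), adjusted p = 0.000296 by limma. Sec11c held at -0.674 in HF-Q mice and -0.832 in HF mice and at -0.678 (adjusted p = 0.0101) without the 2 farthest mice, and P4hb at 0.797 in HF-Q mice and 0.825 in HF mice and at 0.646 (adjusted p = 0.0122). Without those mice 6 of the 14 stayed called. That made 6 of the 31 genes, against 4122 of 21465 in all, so the share was near that of the background. Of the 14, 11 had the same sign in both diets. The 3 that did not were Hsp90b1 (0.183 in HF-Q mice and -0.898 in HF mice), Pdia6 (0.162 in HF-Q mice and -0.808 in HF mice) and Calr (0.0239 in HF-Q mice and -0.865 in HF mice). Over all mice, P4hb and Derl1 (brightest probe) therefore ran with the absorptive score and against the Paneth and B and plasma cell scores. Derl3, Pdia6 and Sec11c ran the reverse way over all mice. Pdia6 ran against the enterocyte score in HF mice but not in HF-Q mice. Without the 2 farthest mice, Pdia6 and Derl1 were no longer called with the enterocyte score. The relations of Pdia6 and Sec11c to the B and plasma cell score rested on 2 mice, as given above.

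**Figure D5:**
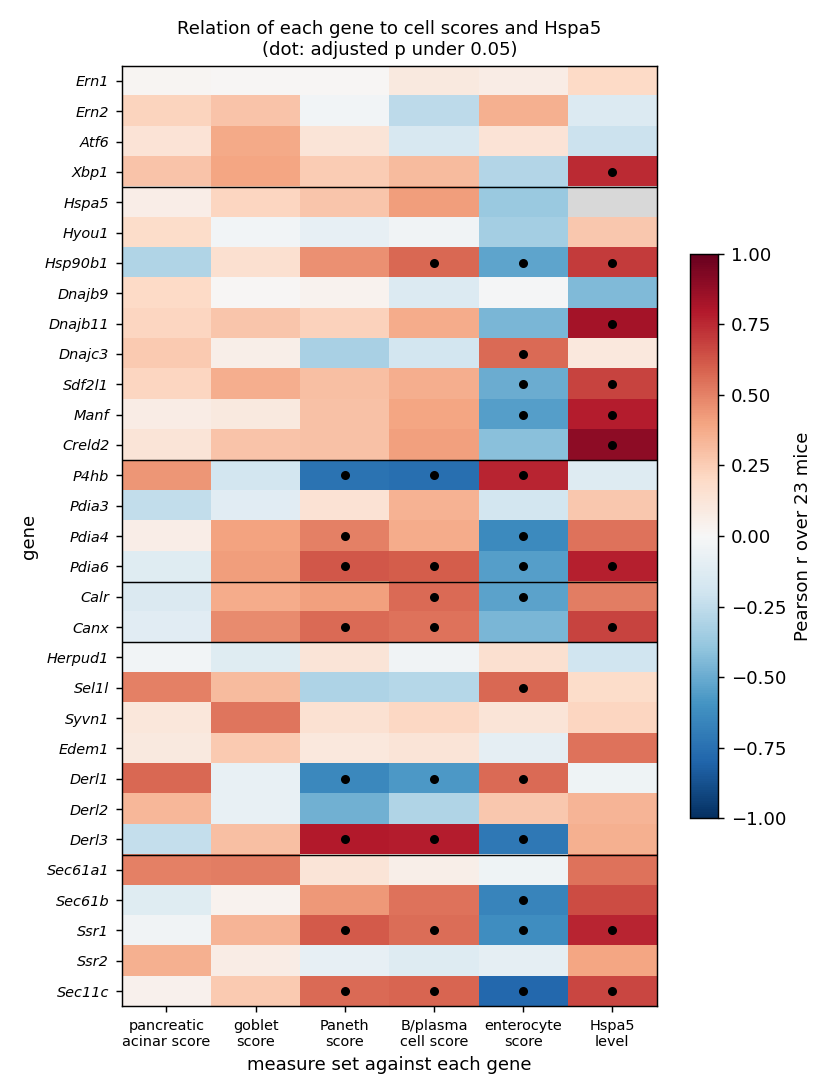
Pearson r over the 23 mice (colour, blue at -1 to red at 1) of each of the 31 genes (rows, by role) with 5 cell scores and with Hspa5 (columns), with a dot where the adjusted p over all genes was under 0.05. No gene has a dot for the acinar or the goblet score, and P4hb and Derl1 have the opposite colour to Derl3 for the Paneth, B and plasma cell and enterocyte scores.

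The pancreatic acinar score, from 26 measured markers led by Amy2a5 and Try5, which spanned 8.37 and 8.36 log2 units over the mice, called 0 of the 31 genes, and 7 of 21451 in all (0.0326%), by limma. At an unadjusted p under 0.05 it gave 4 of the 31, against 10.8% of all genes. Those 4 were Derl1, with r = 0.577 (permutation p = 0.00378) and Spearman's rho = 0.541 (permutation p = 0.00853), and Sel1l, Sec61a1 and P4hb, with r of 0.501, 0.502 and 0.442. Derl1 held at 0.538 in HF-Q mice and 0.737 in HF mice and at 0.526, 0.688 and 0.646 within the 3 slides, yet its adjusted p was 0.384. For the chaperones, r with the acinar score was 0.0678 for Hspa5, 0.128 for Creld2 and -0.300 for Hsp90b1. These pooled values cover slides and diets of opposite sign. Within the 3 slides Hspa5 gave 0.380, 0.370 and -0.839, Creld2 0.401, 0.389 and -0.704, and Hsp90b1 -0.417, 0.0600 and -0.790. In HF-Q mice the 3 genes stood at 0.537, 0.728 and 0.221, against -0.134, -0.0523 and -0.551 in HF mice. The interaction of diet and acinar score called 0 of the 31 genes and 0 of all (0% called). At an unadjusted p under 0.05 it gave 3 of the 31 (Derl3, Ssr1 and Sec61b), against 4.74% of all genes.

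The goblet score, from 12 measured markers of mucus-secreting cells led by Retnlb and Guca2a, ran -0.10 to 0.18 in HF-Q mice, against -0.11 to 0.37 in HF mice. Muc2 had no probe that passed the filter. The score called 0 of the 31 genes, against 0.606% of all genes, and 5 had an unadjusted p under 0.05, against 18.6%. Syvn1 came closest, with r = 0.533 (permutation p = 0.00897) and Spearman's rho = 0.577 (permutation p = 0.00485), adjusted p = 0.170 by limma, followed by Sec61a1 at r = 0.516 and Canx at 0.471. Over the 6 measures, 185 relations of single genes were computed, and the adjusted p given for each comes from the fit over all genes.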

How the data were processed

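Agilent Feature Extraction 10.7.3.1 read the spots, per the submitters' processing notes. The deposited spot and background values are intensity values on a linear scale, not normalized between arrays. The deposited log10 ratios (Cy5 over Cy3) were background-subtracted and dye-normalized by the authors, per the file headers. The authors' deposited table holds processed log2 values for 31718 spots with a median of 9.11 in each column. Its scaling method is not given in the sources used.

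Intensities were corrected by normexp (offset 50) and normalized by loess within arrays (limma 3.58.1, R 4.3.3), with control spots at weight 0 and outlier spots set to missing. Probes well above background in Cy5 on at least 50% of the arrays of a diet were kept (29249 of 55681), and the brightest probe stood for its gene. Names came from RefSeq (GRCm38.p6). Probe positions are on mm9, and their place in exons was not analysed here. Diets, scores and Hspa5 were tested with lmFit and eBayes, two-sided, Benjamini-Hochberg over all genes, threshold 0.05. Correlations had 100000 permutations. The 3 slides served as batches and hold both diets. Same-numbered mice of the 2 diets correlated at -0.347 to 0.394 (11 pairs, 5 over 0.1), so the numbers were not taken to pair mice. The fits were tested on simulated data. The members and lists were chosen with earlier results of these data known. Named were all members, and of each pathway list the 2 genes with the smallest p in a comparison.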

Additional observations from a re-analysis of the deposited data

How the results depend on the processing

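Diet called 0 of the 31 genes under all alternatives, and the median difference stayed above 0 (0.016 within the second slide to 0.17 with median centring). The count at unadjusted p under 0.05 is given with the count over all genes in brackets. It was 6 in the first place (972 of 21477) and 11 with median centring (845). Within the 3 slides it was 1, 2 and 2 (1103, 919 and 784). It was 2 with the replicate block (947) and 2 with the T cell score as a covariate (934). Leaving out each mouse in turn gave 3 to 10 (672 to 1330). Of the 31 genes, 24 were higher and 7 lower in HF-Q in the first place, 19 and 12 within the first and the second slide (7 signs changed in each), and 26 and 5 within the third (6 changed). Median centring also gave 26 and 5, with Atf6 and Derl3 turning round, but it put the median of all genes at 0.049, against -0.0038 without it, and the differences of those 2 genes were -0.032 and -0.046.

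In what follows, brackets give the count called over all genes. The goblet score called 1 gene without the 2 farthest mice (455 of 21465), 2 with the authors' log10 ratio (718) and 4 with array weights (2566). It called 25 with median centring, which called 10120 genes in all. The Paneth score, with 8 (6591 of 21468), called 5 in the authors' table (7188 of 20697) and 1, 0 and 1 within the 3 slides (291, 581 and 1749). It called 1 with all 4 scores in 1 fit (2799), 0 with the enterocyte covariate (1340) and 5 with the smooth muscle covariate (2616). Leaving out each mouse gave 6 to 10 (5601 to 6752). The B and plasma cell score, with 9 (4246 of 21465), called 2 without the 2 farthest mice (1052), 3 in the authors' table (4318 of 20694) and 14 with array weights (5598). It called 0 within each slide (9, 6 and 6), with all 4 scores (16) or with the enterocyte covariate (33). It called 2 with the smooth muscle covariate (1402) and 2 to 10 leaving out each mouse (2406 to 4596). The relation to Hspa5, with 10 (254 of 21476), called 6 with diet as a covariate (87), 2 without the 2 farthest mice (24) and 23 with median centring (7313). It called 0 within each slide (0, 2 and 0), 4 with the enterocyte covariate (58) and 4 to 11 leaving out each mouse (30 to 588). The enterocyte score, with 14 (6017 of 21465), called 6 without the 2 farthest mice (4122). The slope of Sec11c on the Paneth score turned to -0.028 with the enterocyte covariate, and those of Calr and Hsp90b1 on the B and plasma cell score to -0.0031 and -0.054 within the third slide. The causes were not tested. The acinar score called 0 members under all its alternatives, and the 4 interactions called 0 with the slide block, their 1 alternative. The replicate block rests on numbers not shown to pair the mice. The number of arrays limits all of these counts, most within slides of 7 or 8 mice.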
